A study of Mus musculus with 29 samples.

Results

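Keratin genes, which encode the intermediate filaments of epithelial cells, were read in 29 RNA-seq libraries of mouse digit tissue. The set was every gene symbol made of Krt, a number and at most 1 letter, so that the keratin-associated proteins stayed out, and the pseudogene Krt74 was dropped from each of the 2 deposited count tables. The time course table then held 51 keratins among 24411 genes and the amputation table held 53 among 55487, with 54 symbols in either table and 50 in both. In either table, 50 keratins passed the filter on low counts. Krt13 did not pass it in the time course, and Krt13, Krt76 and Krt88 did not pass it in the amputation set. The 54 genes were sorted by known role into 3 basal, 10 suprabasal, 4 wound-associated, 16 hard (9 type I and 7 type II), 8 root sheath or companion layer, 5 simple epithelial, 4 mucosal or corneal and 4 other keratins. By symbol, the time course table has Krt85 and the amputation table has Krt87, so each holds 15 of the 16 hard keratin symbols. The time course table also holds 5430421N21Rik, an older name of both Krt83 and Krt86 in the reference, which was not counted among the members. In the reference, Krt83 is an older symbol of Krt87, and Krt83 was therefore not compared between the tables. Krt90 stands in the time course table under an older name, 4732456N10Rik, with 9.19 to 611 CPM (counts relative to the library size after TMM scaling), and was not counted among the members there.

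The mice had spared nerve injury (SNI), in which the common peroneal and tibial divisions of the left sciatic nerve are transected and the sural division is kept, or a sham operation without that transection. After 5 days a digit of the left hindlimb was cut across at the third phalanx, and the tissue beyond the joint at the base of the digit was later taken without its nail. The time course held amputated digits only: 9 libraries from SNI mice (3 each from days 7, 14 and 21 after the cut) and 8 from sham mice (3 each from days 7 and 14, and 2 from day 21). The amputation set held SNI mice only, with 6 libraries of amputated and 6 of unamputated digits, split evenly between days 7 and 14, so that every control in it also carried the nerve injury. Unamputated digits were taken as their treatment label gives them, although other labels of theirs speak of a regenerate and of a time since amputation. Strain, sex, age and genotype are not given in the labels.

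Keratin filaments are built from pairs of an acidic type I and a basic type II protein, and which pair a cell makes depends on its place in the epithelium. Krt5 and Krt14 mark the dividing basal layer of the epidermis, Krt1 and Krt10 replace them as cells leave that layer, Krt9 belongs to the thick skin of palms and soles, and Krt6a, Krt6b, Krt16 and Krt17 appear in keratinocytes at a wound edge as well as in nail bed and hair follicle. The hard keratins (Krt31 to Krt40 and Krt81 to Krt87) fill the cells of the nail plate and the hair shaft, and the root sheath keratins line the hair follicle around that shaft.

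Promoters were available in RefSeq for 36 keratin genes (37 entries, since Krt13 has 2), as windows of 250 bases before to 50 bases after the start. None was available for Krt1 or for the wound keratins Krt6a, Krt6b, Krt16 and Krt17, and only 9 of the 16 hard keratins had one. The motif TATAAA, searched on both strands, was in 19 of the 37 entries, against 13.6% of all 32851 promoters. It was in 6 of 9 hard and 7 of 8 root sheath promoters, in 1 of 8 suprabasal promoters and in 0 of 2 basal ones. Counted only shortly before the start and on the strand of the gene, it was in 4 hard, 5 root sheath, 1 suprabasal and 0 basal promoters. The search took these exact letters only, so a promoter without them was not shown to lack a TATA box. The motif CTTTGAA, which overlaps sites of LEF1 and TCF factors, was in 5 of 9 hard promoters (Krt31, Krt32, Krt33b, Krt34 and Krt39), against 5.14% of all promoters, and TGANTCA, an AP-1 site, was in 2 of 37 entries, both of Krt13, against 7.81%. Shown here are the 80 bases before the start for 3 hard keratins and 2 suprabasal ones that the tests called, and for 2 root sheath keratins, with TATAAA in capitals. Coordinates are of GRCm38.p6, and all 7 genes lie on the minus strand.
Krt32 (chr11:100088270-100088349): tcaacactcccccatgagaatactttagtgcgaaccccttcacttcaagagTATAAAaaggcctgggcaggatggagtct
Krt40 (chr11:99543221-99543300): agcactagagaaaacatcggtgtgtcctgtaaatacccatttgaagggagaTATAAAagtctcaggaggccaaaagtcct
Krt82 (chr15:101550660-101550739): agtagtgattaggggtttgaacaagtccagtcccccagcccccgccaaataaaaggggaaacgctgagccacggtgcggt
Krt10 (chr11:99389365-99389444): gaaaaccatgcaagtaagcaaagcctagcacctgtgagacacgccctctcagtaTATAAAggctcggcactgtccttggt
Krt9 (chr11:100193247-100193326): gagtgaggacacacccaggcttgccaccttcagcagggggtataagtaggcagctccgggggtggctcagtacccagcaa
Krt25 (chr11:99322952-99323031): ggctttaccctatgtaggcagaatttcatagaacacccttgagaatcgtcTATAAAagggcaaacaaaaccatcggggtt
Krt71 (chr15:101743098-101743177): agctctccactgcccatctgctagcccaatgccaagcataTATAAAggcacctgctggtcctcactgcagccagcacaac
In Krt32 and Krt40 the motif begins 29 bases before the start, in Krt25 30, in Krt10 26 and in Krt71 40. The windows of Krt82 and Krt9 do not hold these exact letters, but the bases shown hold ataaaa in Krt82 and tataag in Krt9, which were not counted.

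Library totals were between 35654192 and 56809440 counts in the time course and between 31274245 and 43315729 in the amputation set. Keratins made up 3.18% to 10.9% of the counts, and markers of epithelium other than keratins were detected in every group, with all 6 present and a summed level between 2247 and 3227 CPM. In the time course, replicate 2 of the SNI digits at day 7 and replicate 1 of the sham digits at day 21 stood apart, with TMM factors of 0.761 and 0.633. The first of them also held 14598 CPM of neutrophil marker transcripts. Several medians over keratin roles are given with and without both libraries. Leaving out either sham library of day 21 leaves a single library in that group. Values of single genes and of the other gene lists include both libraries that stand apart, unless a fit without a library is named. Calls rest on an adjusted p under 0.05 in edgeR's quasi-likelihood test with Benjamini-Hochberg adjustment over all genes of its table. In bulk tissue, fewer cells of a type and less RNA per cell cannot be told apart.

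Per kilobase of transcript, suprabasal keratins made up most of the keratin RNA in all 10 groups, from 55.4% to 83.8% of it per library. In the time course Krt10 had the highest mean level, at 13438 CPM per kilobase, followed by Krt2, a keratin of the upper epidermis, at 6221, Krt1 at 4459, Krt14 at 2904 and Krt5 at 2014. The amputation set had the same order of these 5 genes, from 14991 CPM per kilobase for Krt10 to 2090 for Krt5. Hard keratins made up between 0.792% and 9.06% of the keratin RNA. These shares leave out Krt85, which averaged 396 CPM in the time course, because no transcript length was at hand for it. Among the lowest members were Krt13, with a highest library at 0.189 CPM, and Krt88, with a highest library at 0.0284 CPM. Simple epithelial keratins, which mark secretory and Merkel cells in skin, made up no more than 0.1005% of it.

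In SNI digits, keratins of differentiated epidermis were lower after amputation. At day 7, 3 of 50 tested keratins were called, all 3 suprabasal and all lower, where 1.35% of all 17475 tested genes were called (0.75% as lower). Krt1, the type II partner of Krt10, had 8229, 8813 and 7856 CPM in amputated digits, against 17332, 17649 and 21055 CPM in unamputated digits. Every amputated library lay below every unamputated one, and Krt1 fell by 1.17 ± 0.12 on the log2 scale (SE, n = 3 each, adjusted p = 0.000612). Krt9, the palm and sole keratin, had 1982, 2336 and 2369 CPM in amputated digits, against 4175, 3860 and 4836 CPM in unamputated digits. Its groups did not overlap either, and it fell by 0.94 ± 0.11 (SE, adjusted p = 0.00129). Krt10 had 25037, 27374 and 26196 CPM in amputated digits, against 36962, 34792 and 40787 CPM in unamputated digits. It fell by 0.52 ± 0.08 (SE, adjusted p = 0.00929) with no overlap, and its call was lost in 1 of 12 fits that each left out 1 library (adjusted p = 0.051 without replicate 1 of the amputated digits at day 7) and in the fit of the 2 compared groups alone (0.0584).

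The other suprabasal keratins moved less. Krt2 had 16875, 20790 and 20502 CPM in amputated digits at day 7, against 22145, 20089 and 23515 CPM in unamputated digits, and the groups overlapped (log2 fold change -0.18 ± 0.11, SE, adjusted p = 0.476). Krt24, a keratin of differentiated keratinocytes, had 3393, 3295 and 2996 CPM in amputated digits, against 4129, 3578 and 4540 CPM in unamputated digits. Those groups did not overlap, but the adjusted p was 0.16 (log2 fold change -0.34 ± 0.11, SE). In all, 8 of 10 suprabasal keratins had a negative log2 fold change at day 7, with a median of -0.32, against 0.00 over all tested genes. The libraries of 6 of them were lower without overlap, where 8.86% of all tested genes were.

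**Figure D1:**
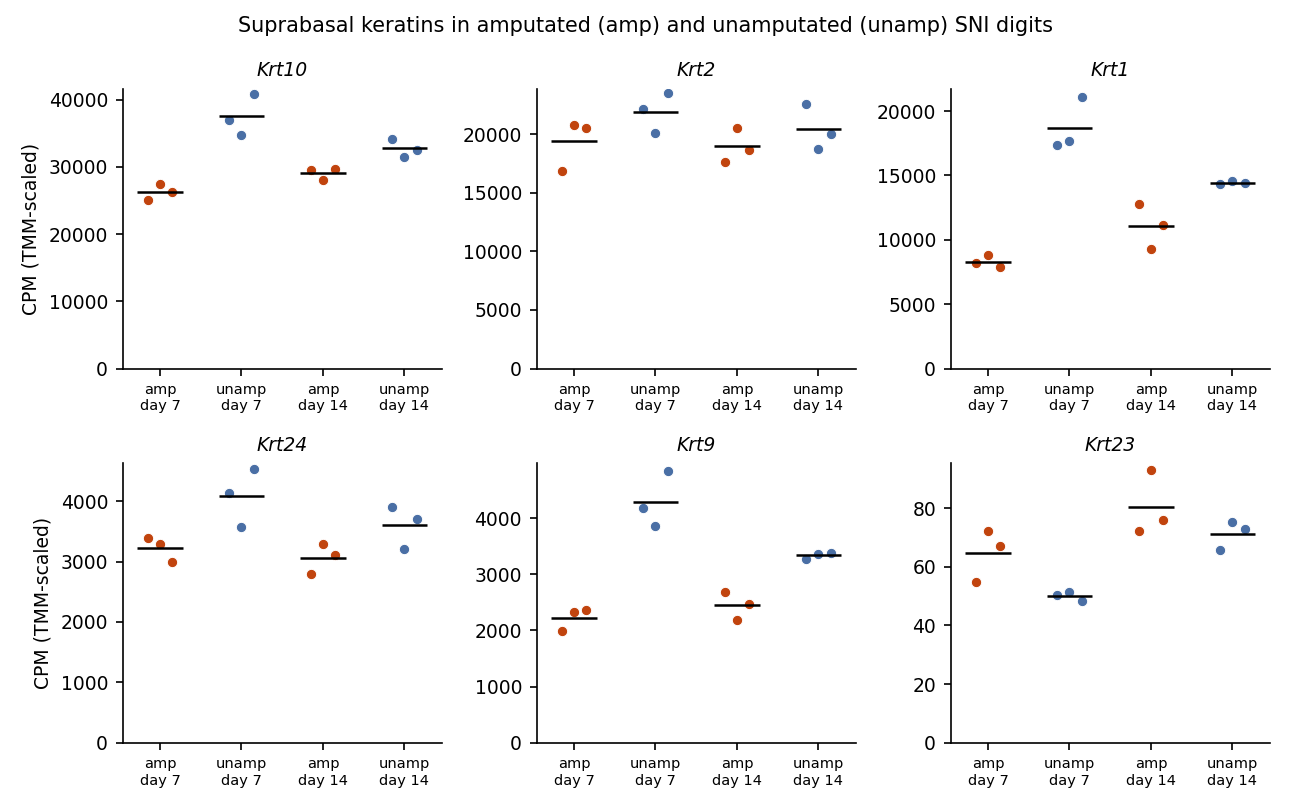
Level of 6 suprabasal keratins in CPM (vertical axes, TMM-scaled, starting at 0) in amputated (amp) and unamputated (unamp) SNI digits at days 7 and 14. Points are libraries (n = 3 a group) and lines are means. Krt1, Krt9 and Krt10 sit lower in all 3 amputated libraries of either day, Krt2 overlaps between the groups, and Krt23 is higher in the amputated digits of day 7, at 54.8 to 72.2 CPM against 48.4 to 51.3 CPM.

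At day 14 these 3 genes had log2 fold changes of the same sign and nearer to 0. Krt1 had 12800.0, 9318 and 11127 CPM in amputated digits, against 14349, 14548 and 14418 CPM in unamputated digits (log2 fold change -0.38 ± 0.11, SE, adjusted p = 0.0755). Krt10 had 29541, 28061 and 29689 CPM in amputated digits, against 34183, 31525 and 32557 CPM in unamputated digits (log2 fold change -0.17 ± 0.08, SE, adjusted p = 0.229). Krt9 had 2687, 2191 and 2478 CPM in amputated digits, against 3272, 3363 and 3373 CPM in unamputated digits. None of the 3 genes overlapped between the groups, and only Krt9 passed the test, where it fell by 0.44 ± 0.11 (SE, adjusted p = 0.0461), a call lost in 9 of 12 fits without 1 library and with the replicate block (0.0893). The test of the difference between days called 0 of 50 keratins and 0% of all tested genes (9 keratins at an unadjusted p under 0.05, where 6.25% of all tested genes were; 1 keratin called by DESeq2). For Krt1 that difference, day 14 minus day 7, was 0.79 ± 0.16 on the log2 scale (SE, adjusted p = 0.751).

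Krt19, a keratin of glandular and follicular stem cells, was the other keratin called at day 14, where 2.75% of all tested genes were called. It had 10.4, 12.5 and 10.3 CPM in amputated digits, against 6.86, 5.00 and 5.33 CPM in unamputated digits. All amputated libraries were higher, and it rose by 0.95 ± 0.18 (SE, adjusted p = 0.0267). Without replicate 2 or replicate 3 of either day 14 group, the adjusted p was between 0.0662 and 0.113. At day 7 Krt19 had 9.59, 11.9 and 8.56 CPM in amputated digits, against 8.84, 8.79 and 6.53 CPM in unamputated digits, and was not called (adjusted p = 0.433).

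Averaged over both days, amputation called 13 of 50 keratins, where 11.8% of all tested genes were called. The 8 lower ones were Krt1, Krt9, Krt10, Krt24, the suprabasal Krt78 and Krt80, the simple epithelial Krt7 and the mucosal Krt4, with log2 fold changes between -0.24 (Krt80) and -1.49 (Krt4). Krt4 had a low level, at 0.389 to 2.96 CPM per library. The 5 higher ones were Krt19, the basal and follicle stem cell keratin Krt15, the companion layer keratin Krt75, the hard keratin Krt84 and Krt23. Krt15 had 823, 908 and 1036 CPM in amputated digits at day 7, against 673, 712 and 679 CPM in unamputated digits, and 774, 1061 and 809 CPM in amputated digits at day 14, against 803, 694 and 695 CPM in unamputated digits. The groups were apart at day 7 and overlapped at day 14, and the average rose by 0.35 ± 0.09 (SE, adjusted p = 0.0243). Krt1, Krt9, Krt10 and Krt19 stayed called on average in all 12 fits that left out 1 library, and each of the other 9 lost its call in at least 3 of the 12. Krt4, Krt7 and Krt23 each lost it in 10 of the 12.

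The other basal keratins, Krt5 and Krt14, had no call. Krt5 had 4124, 4489 and 4156 CPM in amputated digits at day 7, against 4711, 4400 and 4890 CPM in unamputated digits. At day 14 it had 4832, 5309 and 4817 CPM in amputated digits, against 4429, 4638 and 4297 CPM in unamputated digits, so that the groups were apart at day 14 (log2 fold change 0.16 ± 0.08, SE, adjusted p = 0.218). Per kilobase, basal keratins made up 13.0% to 15.7% of the keratin RNA in amputated libraries of both days, against 10.4% to 12.5% in unamputated ones. This share depends on the fall of the suprabasal keratins as well as on the level of the basal ones.

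Wound keratins did not separate the amputated digits from the unamputated ones at these days. Krt6b, which is induced in keratinocytes at wounds, had 271, 20.3 and 289.8 CPM in amputated digits at day 7, against 135, 396 and 462 CPM in unamputated digits. The type I wound keratin Krt16 had 231, 63.6 and 327 CPM in amputated digits, against 179, 561 and 535 CPM in unamputated digits. Both groups overlapped for both genes, and all 4 wound keratins had negative log2 fold changes at day 7 (median -0.68, 0 called) and positive ones at day 14 (median 0.47, 0 called). Without replicate 1 of the amputated digits at day 14 that median was -0.03. Krt6a and Krt6b share 48.5% and 44.8% of their 50-base stretches with another keratin transcript, so their counts may be split between copies.

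**Figure D2:**
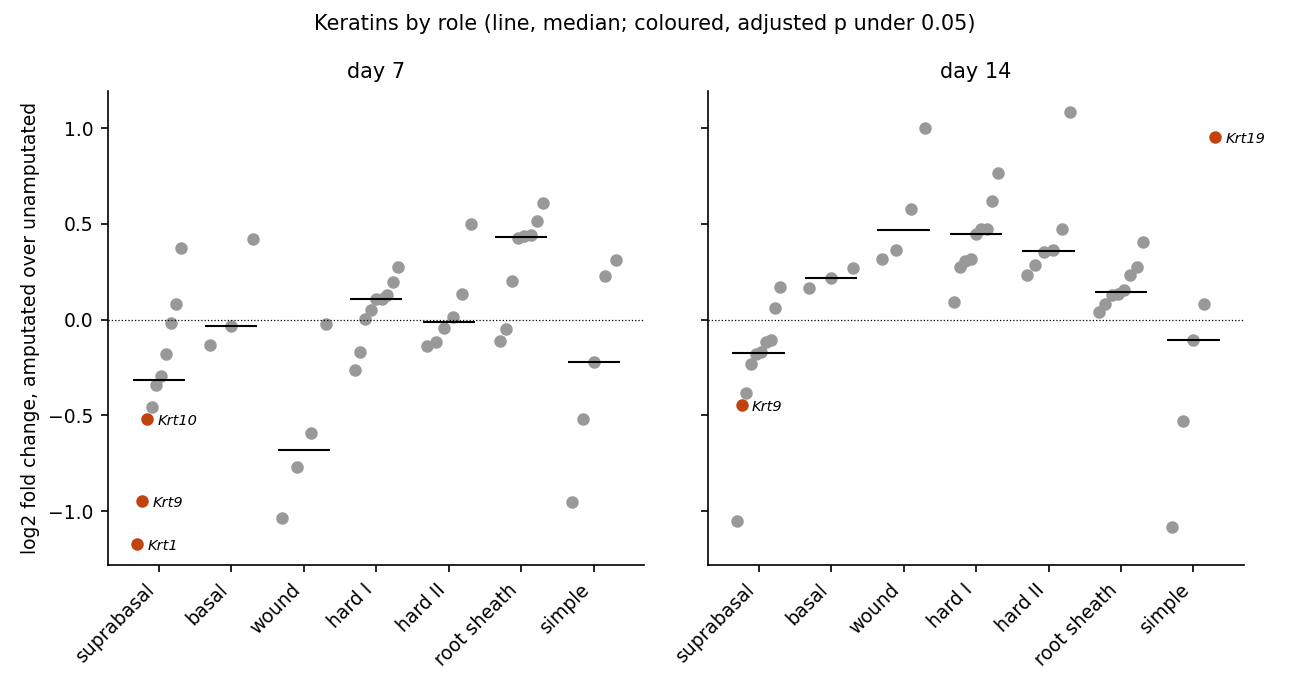
Log2 fold change, amputated over unamputated SNI digits (vertical axis), of each tested keratin by role at day 7 and day 14. Each point is a gene, lines are medians over the role, and coloured, named points have an adjusted p under 0.05. Krt1, Krt9 and Krt10 stand below 0 at day 7, and all 15 hard keratins lie above 0 at day 14.

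Some markers of other tissues also differed with amputation. Within each day, the summed osteoclast markers and the summed Schwann cell and myelin markers were apart between amputated and unamputated digits. Sweat gland markers were apart at day 7 only, and neutrophil markers overlapped at both days. The ranges that follow pool both days. The summed level of 7 sweat gland markers was 312 to 419 CPM in amputated digits, against 413 to 467 CPM in unamputated digits, that of 6 osteoclast markers was 265 to 1709 CPM in amputated digits, against 103 to 289 CPM in unamputated digits, and no marker of either list was at 0 in a whole group. The 6 Schwann cell and myelin markers summed to 116 to 236 CPM in amputated digits, against 340 to 435 CPM in unamputated digits, and 7 neutrophil markers to 9.86 to 125 CPM in amputated digits, against 5.71 to 59.3 CPM in unamputated digits. The 6 epithelial markers other than keratins had 2414 to 3160 CPM in amputated digits, against 2674 to 3227 CPM in unamputated digits, with 0 of 6 called at either day (1.35% of all tested genes at day 7 and 2.75% at day 14). Whether these differences have a part in the keratin results was not tested. Of 16 genes for desmosomes and keratin linkers, 2 were called at day 7, both lower, where 1.35% of all tested genes were called (0.75% as lower). Cdsn, which encodes the cornified layer protein corneodesmosin, fell by 0.48, and Pkp3, which encodes the desmosome protein plakophilin 3, fell by 0.36.

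Hard keratins were 4 of the 5 keratins that were called at day 14 against day 7 in amputated SNI digits. All 5 were higher, where 0.607% of all tested genes were called. Krt82, a type II keratin known from the cuticle of human hair, had 69.8, 58.2 and 48.9 CPM at day 14, against 19.5, 19.7 and 17.4 CPM at day 7. All day 14 libraries lay above all day 7 ones, and Krt82 rose by 1.64 ± 0.17 (SE, adjusted p = 0.00336). Krt32, a type I cuticle keratin in humans, had 88.1, 71.0 and 55.7 CPM at day 14, against 19.6, 22.1 and 17.3 CPM at day 7, and rose by 1.86 ± 0.20 (SE, adjusted p = 0.00555). Krt40 had 20.7, 14.7 and 10.5 CPM at day 14, against 3.89, 3.18 and 3.33 CPM at day 7, and rose by 2.14 ± 0.27 (SE, adjusted p = 0.00592). The groups of Krt32 and Krt40 did not overlap either. The other called hard keratin, Krt39, had 11.4, 7.80 and 6.55 CPM at day 14, against 3.91, 3.53 and 3.87 CPM at day 7 (log2 fold change 1.19 ± 0.23, SE, adjusted p = 0.0299).

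Krt17, a keratin of wound edge, nail bed and outer root sheath, was the fifth. It had 1036, 1043 and 763 CPM in amputated digits at day 14, against 566, 579 and 569 CPM at day 7. These libraries did not overlap, and Krt17 rose by 0.73 ± 0.11 (SE, adjusted p = 0.0109). Its call was lost without replicate 2 or replicate 3 of the amputated digits at day 7 (adjusted p = 0.0831 and 0.0691) and in the fit of the 2 compared groups alone (0.0664), that of Krt40 without replicate 2 of that group (0.0562), and that of Krt39 in 4 of 12 fits without 1 library, with the replicate block (0.0509) and in the fit of the 2 compared groups alone (0.0987). Krt32 and Krt82 stayed called in all 12.

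The more abundant hard keratins had smaller differences in the same direction. Krt31, a cortex keratin of the hair shaft, had 611, 425 and 449.8 CPM in amputated digits at day 14, against 292, 404 and 263 CPM at day 7 (log2 fold change 0.63 ± 0.20, SE, adjusted p = 0.215). Krt36, known from nail and from the filiform papillae of the tongue, had 612, 617 and 981 CPM at day 14, against 500.1, 621 and 450.4 CPM at day 7, and its groups overlapped. All 15 hard keratins had a positive log2 fold change (median 1.16, against 0.00 over all tested genes), 14 of them without overlap, where 8.78% of all tested genes were higher without overlap. The 8 root sheath keratins were also all positive, with a median of 1.30, 7 without overlap and 0 called. Of 6 regulators of hard keratin genes (transcription factors of nail matrix and hair cortex), 6 were positive with a median of 0.27 and 0 were called.

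Unamputated SNI digits, collected at the same 2 times, had the same ordering of days. In them 3 keratins were called, all 3 hard and all higher at day 14, where 0.303% of all tested genes were called. Krt82 had 48.6, 43.0 and 58.8 CPM at day 14, against 16.9, 19.2 and 25.3 CPM at day 7, and rose by 1.29 ± 0.17 (SE, adjusted p = 0.0231). Krt32 had 62.6, 44.9 and 70.5 CPM at day 14, against 20.4, 21.9 and 28.5 CPM at day 7, and rose by 1.33 ± 0.20 (SE, adjusted p = 0.0313). Krt40 had 10.7, 8.63 and 13.7 CPM at day 14, against 2.99, 2.43 and 4.10 CPM at day 7, and rose by 1.80 ± 0.27 (SE, adjusted p = 0.0313). The libraries of these 3 genes did not overlap, but the calls were lost in the fit of the 2 compared groups alone (adjusted p between 0.0612 and 0.073), that of Krt32 also with no filter on low counts (0.112), and in 8 of 12 fits without 1 library for Krt32 and Krt40 and 6 of 12 for Krt82.

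Across the hard keratins of unamputated digits the median log2 fold change was 0.80, with 15 of 15 positive (14 of 15 with RLE size factors, since Krt36 had 0.00 ± 0.22, SE). The 8 root sheath keratins had a median of 1.47, and all 8 were higher at day 14 without overlap, where 5.59% of all tested genes were. Krt71, the inner root sheath partner of Krt25, had 492, 468 and 695 CPM at day 14, against 81.6, 196 and 292 CPM at day 7 (log2 fold change 1.54 ± 0.41, SE, adjusted p = 0.41). The change over time in amputated digits was not shown to differ from that in unamputated digits for any keratin, since the test of that difference called 0 of 50.

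**Figure D3:**
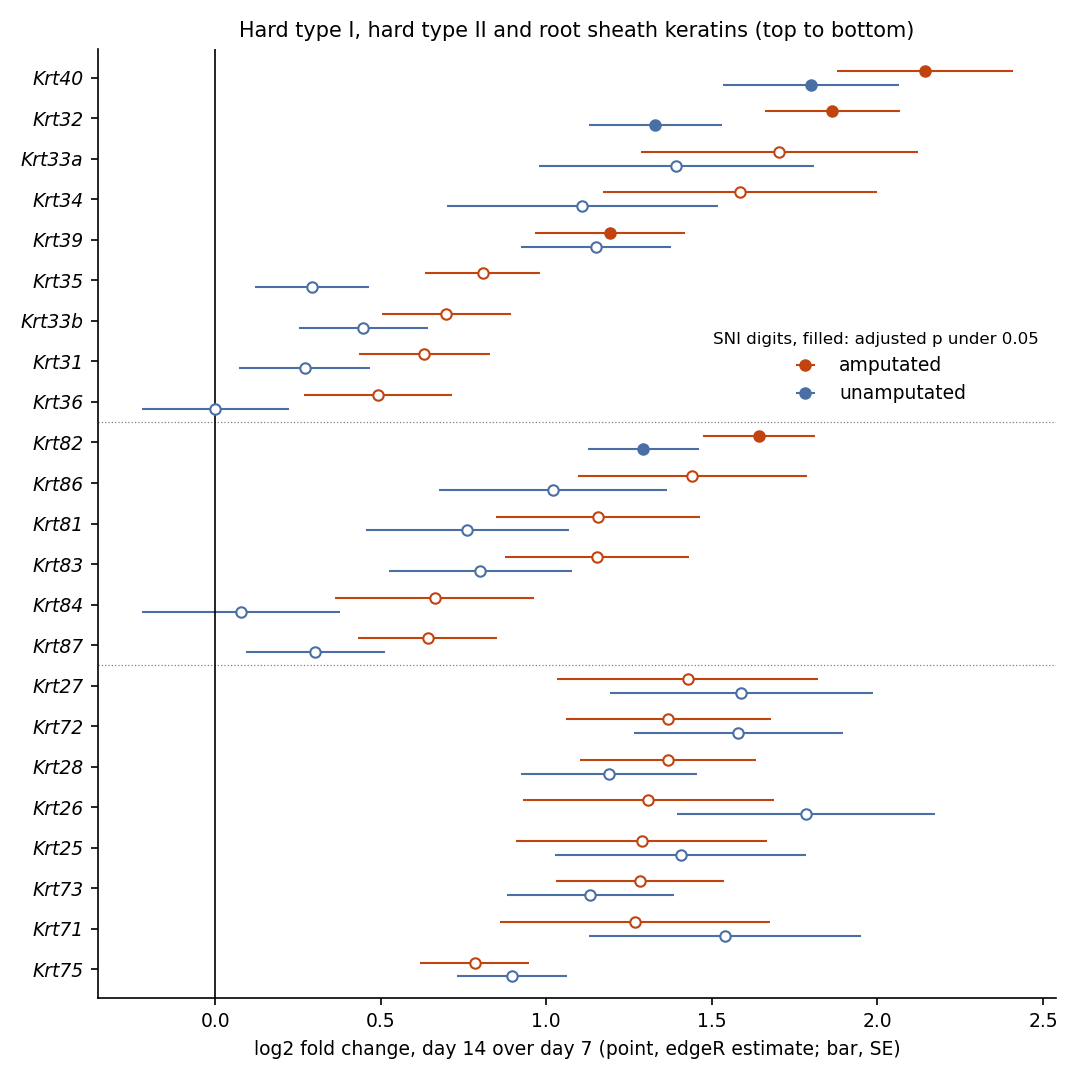
Log2 fold change of hard and root sheath keratins, day 14 over day 7 (horizontal axis), in amputated and unamputated SNI digits. Points are edgeR estimates, bars are SE, and filled points have an adjusted p under 0.05. Krt40, Krt32 and Krt82 have the filled points in both series and Krt39 in amputated digits, while Krt36 and Krt84 lie near 0 in unamputated digits (0.00 and 0.08).

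At day 14 the hard keratins with the largest difference between amputated and unamputated digits were not those that differed most between days. Krt84, a type II keratin known from the same tongue papillae as Krt36, had 614, 609 and 1196 CPM in amputated digits, against 285, 446 and 409 CPM in unamputated digits, without overlap (log2 fold change 1.08 ± 0.30, SE, adjusted p = 0.0732). At day 7 it had 455, 591 and 480.4 CPM in amputated digits, against 262, 477 and 342 CPM in unamputated digits, and the groups overlapped. Over both days Krt84 rose by 0.79 ± 0.21 (SE, adjusted p = 0.0405), a call lost in 9 of 12 fits without 1 library and with no filter on low counts (0.112). Krt36 had 612, 617 and 981 CPM in amputated digits at day 14, against 349.5, 473 and 479 CPM in unamputated digits (log2 fold change 0.76 ± 0.22, SE, adjusted p = 0.0776). All 15 hard keratins were positive at day 14 with a median of 0.37, and 4 were higher without overlap, where 15.9% of all tested genes were. That median was 0.07 without replicate 1 of the amputated digits at day 14. Per kilobase, hard keratins made up 5.82% to 7.49% of the keratin RNA in amputated libraries at day 14, against 3.90% to 5.07% in unamputated ones.

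The time course asked whether the nerve injury changes the amputated digit. No keratin was called in any of its 9 comparisons, and 0% of all 16084 tested genes were called. At an unadjusted p under 0.05 stood 8 of 50 keratins for SNI against sham at day 7 (13.6% of all tested genes), 3 at day 14 (5.93%), 2 at day 21 (2.2%) and 9 averaged over days (14% of all tested genes). DESeq2 called 1 of 50 keratins, Krt8, in the average, and 163 genes in all. The test of whether SNI against sham differs between days had 2 keratins, Krt6b and Krt16, at an unadjusted p under 0.05 (3.66% of all tested genes), with an adjusted p of 0.712 for both. The common biological coefficient of variation was 0.393 in the time course and 0.17 in the amputation set, so a difference of a given size was harder to detect here.

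Suprabasal keratins were lower in SNI digits at day 7, as a set of values without a call. Krt10 had 24952, 22437 and 24928 CPM in SNI digits, against 34701, 31508 and 35499 CPM in sham digits. Krt2 had 14209, 8503 and 13281 CPM in SNI digits, against 24754, 21938 and 20923 CPM in sham digits. Krt9 had 1221, 227 and 526 CPM in SNI digits, against 3990.1, 2494 and 2273 CPM in sham digits. None of these 3 genes overlapped between SNI and sham, and their log2 fold changes were -0.49 ± 0.34, -0.91 ± 0.37 and -2.15 ± 0.90 (SE, adjusted p between 0.301 and 0.335). Krt24 had 2167, 1659 and 1888 CPM in SNI digits, against 3265, 3020 and 3070.3 CPM in sham digits (log2 fold change -0.71 ± 0.23, SE, adjusted p = 0.301). All 10 suprabasal keratins were negative with a median of -0.79 (0.02 over all tested genes), and 8 were lower without overlap, where 23.8% of all tested genes were. Without both libraries that stand apart, 9 of 10 were negative with a median of -0.54.

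At day 14, 9 of 10 suprabasal keratins were negative (median -0.49) and 7 were lower without overlap, where 12.2% of all tested genes were. Krt10 had 27701, 31470.0 and 21709 CPM in SNI digits, against 33457, 36150 and 38119 CPM in sham digits, without overlap (adjusted p = 0.578). Markers of other cells moved at the same day: 6 osteoclast markers summed to 256 to 3086 CPM in SNI digits, against 201 to 311 CPM in sham digits, and 7 macrophage markers to 322 to 658 CPM in SNI digits, against 185 to 211 CPM in sham digits. All 6 and all 7 had an unadjusted p under 0.05 with higher values in SNI digits (medians 2.98 and 1.41), and 0 were called. Their part in the keratin values was not tested. Day 21 gave no direction. Krt10 had 31050, 22278 and 18344 CPM in SNI digits, against 12479 and 31566 CPM in sham digits, and the 2 sham libraries lay on either side of all 3 SNI ones. The median over suprabasal keratins was 0.08 at day 21, -0.45 without sham replicate 1 and 0.59 without sham replicate 2, and each omission leaves a single sham library. Averaged over days, all 10 were negative with a median of -0.41 (9 of 10 and -0.48 without both libraries that stand apart), and the smallest p among them was that of Krt24 (log2 fold change -0.41 ± 0.14, SE, adjusted p = 0.337).

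Genes of desmosomes and keratin linkers followed the same order. At day 7, 15 of 16 had a negative log2 fold change in SNI digits (median -1.47) and 0 were called, and 15 were lower without overlap, where 23.8% of all tested genes were. Of 8 epidermal regulators 8 were negative (median -0.80, 0 called). The 6 epithelial markers other than keratins had a median of 0.03 and summed to 2247 to 2735 CPM in SNI digits, against 2470.4 to 2835 CPM in sham digits, and the basal keratins Krt5, Krt14 and Krt15 had a median of -0.03. The 7 sweat gland markers summed to 268 to 320 CPM in SNI digits at day 7, against 398 to 469 CPM in sham digits. Whether sweat glands or neutrophils have a part in the keratin values was not tested.

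**Figure D4:**
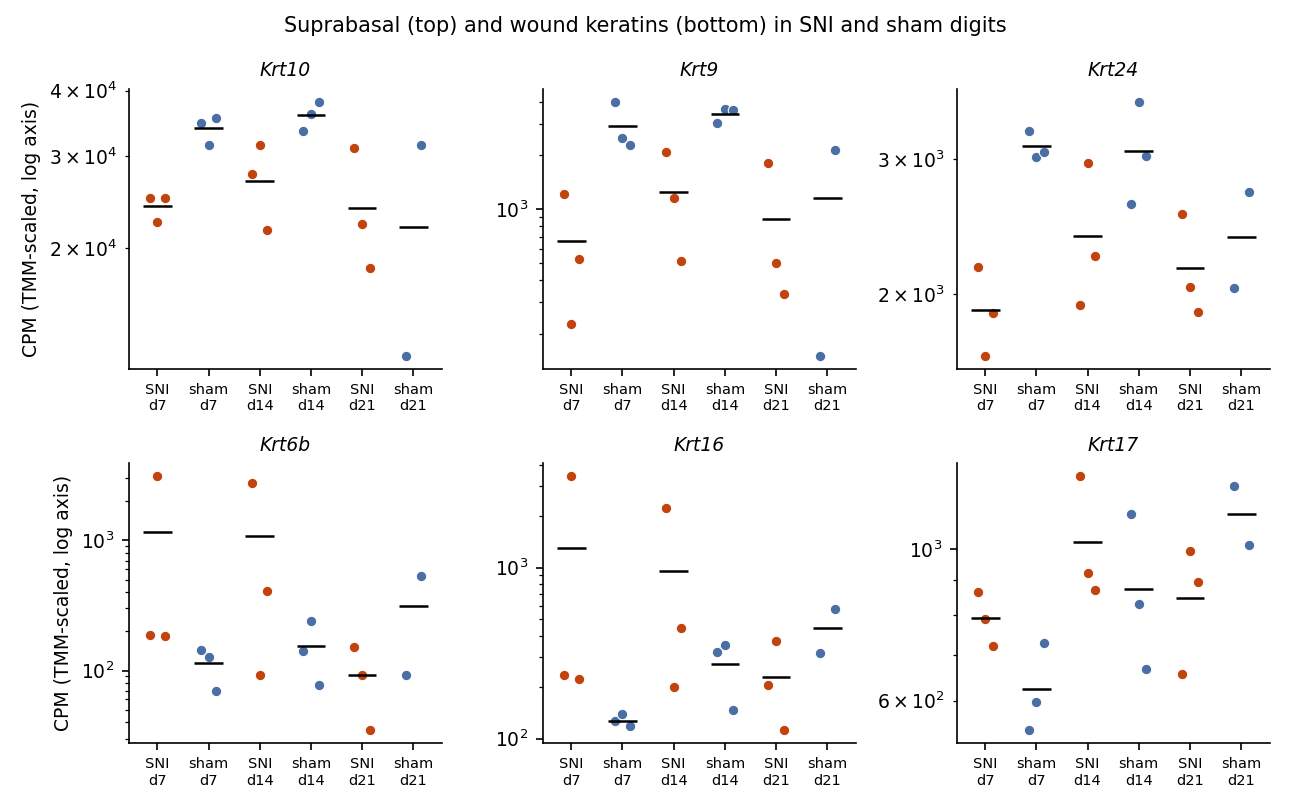
Levels in CPM (vertical axes, log scale, TMM-scaled) of the suprabasal keratins Krt10, Krt9 and Krt24 and the wound keratins Krt6b, Krt16 and Krt17 in SNI and sham digits at days 7, 14 and 21. Points are libraries (n = 3, n = 2 for sham at day 21) and lines are means. The 3 suprabasal genes are apart between SNI and sham at day 7, and 1 SNI library each at days 7 and 14 stands far above the rest for Krt6b and Krt16, at 2216 to 3432 CPM.

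The values of wound keratins in SNI digits rested on single libraries. At day 7 Krt6b had 186, 3128 and 185 CPM in SNI digits, against 145, 126 and 70.2 CPM in sham digits, and Krt16 had 236, 3432 and 223 CPM in SNI digits, against 126, 139 and 118 CPM in sham digits. Both genes were higher without overlap, where 13.7% of all tested genes were, and replicate 2 held most of the difference. The log2 fold changes were 3.36 ± 1.31 for Krt6b and 3.34 ± 1.08 for Krt16 (SE, adjusted p = 0.301 for both), and without that replicate they were 0.75 and 0.89. At day 14 Krt6b had 2762, 91.9 and 407 CPM in SNI digits, against 143, 242 and 77.9 CPM in sham digits (log2 fold change 2.82 ± 1.28, SE, adjusted p = 0.578), and 0.69 without SNI replicate 1. Krt6a, a close copy of Krt6b, followed it, with 620.2, 2901 and 584 CPM in SNI digits at day 7, against 641, 523 and 494 CPM in sham digits. By day 21 Krt6b had 152, 92.2 and 34.9 CPM in SNI digits, against 92.3 and 531 CPM in sham digits. Medians over the 4 wound keratins were 2.33 at day 7 (0.57 without both libraries that stand apart), 1.33 at day 14 (0.14 without SNI replicate 1) and -0.74 at day 21 (-1.16 without both libraries that stand apart, -0.22 without sham replicate 2 of day 21). Either omission at day 21 leaves a single sham library of that day.

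Krt17 varied less than the other wound keratins. In SNI digits it had 867, 789.9 and 722 CPM at day 7, 1280.3, 923 and 872 CPM at day 14 and 657, 995 and 895 CPM at day 21. In sham digits it had 543, 597 and 729.8 CPM at day 7, 1125, 831 and 667 CPM at day 14 and 1236 and 1013 CPM at day 21. Against day 7, sham day 21 was higher without overlap (log2 fold change 0.85 ± 0.27, SE, adjusted p = 0.222), the smallest p of a keratin in that comparison. Without replicate 2 of the sham digits at day 21, that group is 1 library, the one that stands apart, and the other groups supply the spread. In that fit 8331 genes were called, with 10 of 50 keratins, Krt17 among them (adjusted p = 0.0235).

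Hard keratins varied widely between libraries of the time course. Krt31 had a within-group SD of 1.42 on the log2 scale, Krt82 1.41 and Krt6b 1.67, against 0.19 for Krt5. In the amputation set the SD of Krt31 was 0.28 and that of Krt10 0.08. At day 7 Krt31 had 555, 12.6 and 197 CPM in SNI digits, against 163, 154 and 452 CPM in sham digits, and the lowest value belonged to replicate 2, the library with the neutrophil transcripts. That library was also the lowest of all 17 for Krt82, at 1.70 CPM, while Krt36 and Krt84 had 220.0 and 163 CPM in it. The hard keratin median for SNI against sham at day 7 was 0.19 with 12 of 15 positive, and 0.76 with 15 of 15 positive without both libraries that stand apart. Without replicate 1 of the SNI digits at day 7 it was -1.19.

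At day 14 all 15 hard keratins were lower in SNI digits on average, with a median of -1.01 (0.03 over all tested genes), and 3 were lower without overlap, where 12.2% of all tested genes were. The osteoclast and macrophage markers that were higher in SNI digits at this day are given above with the suprabasal keratins. Krt31 had 185, 592 and 79.2 CPM in SNI digits, against 745, 587 and 389.6 CPM in sham digits, with overlap (log2 fold change -1.01 ± 0.93, SE, adjusted p = 0.584). Leaving out 1 library at a time moved the median between -1.81, without SNI replicate 2 of day 14, and -0.56, without SNI replicate 3 of that day. The 8 root sheath keratins were negative too (median -0.70). By day 21 the hard keratin median was 0.39 with 12 of 15 positive (0.57 and 11 of 15 without both libraries that stand apart, which leaves a single sham library of that day) and 6 without overlap, where 4.36% of all tested genes were higher without overlap. Krt31 then had 542, 524 and 389 CPM in SNI digits, against 257 and 238 CPM in sham digits.

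**Figure D5:**
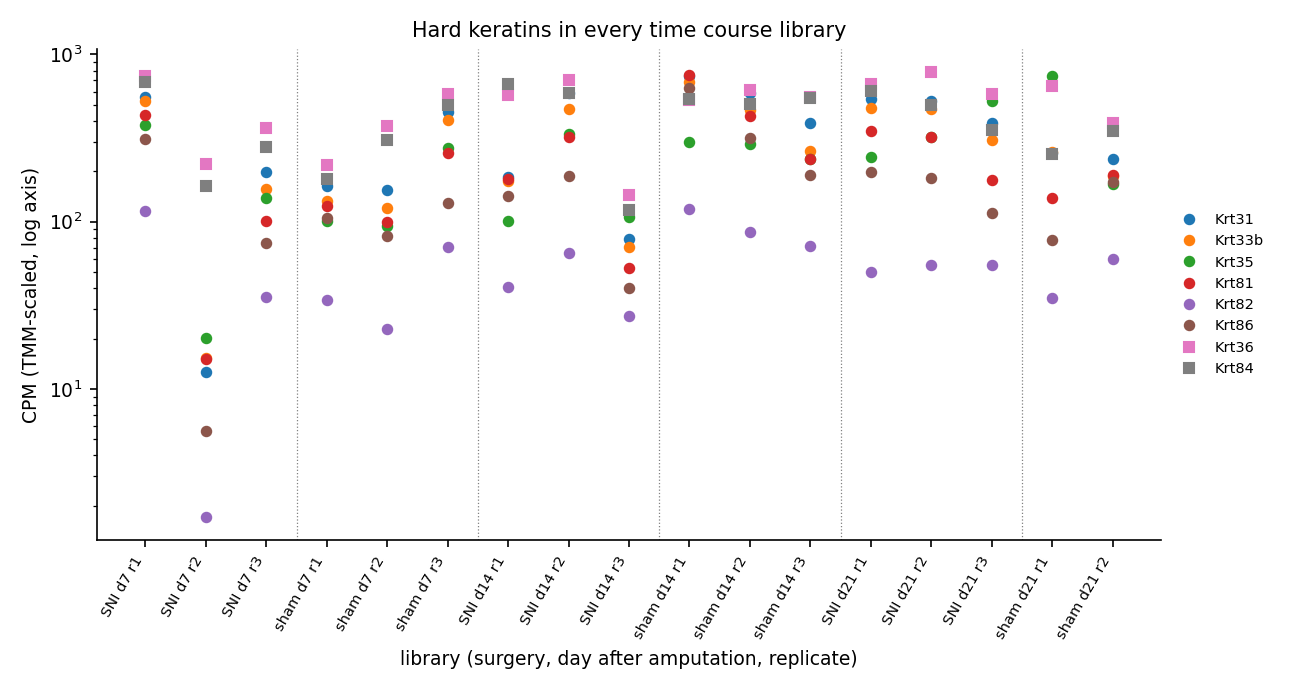
Level in CPM (vertical axis, log scale, TMM-scaled) of 8 hard keratins in each library of the time course (horizontal axis), SNI left of sham within each day. Circles are Krt31, Krt33b, Krt35, Krt81, Krt82 and Krt86, and squares are Krt36 and Krt84. Replicate 2 of the SNI digits at day 7 has the lowest circles, while its squares lie at 163 and 220.0 CPM.

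Between days, 3 of 50 keratins had an unadjusted p under 0.05 for day 14 against day 7 in sham digits (1.96% of all tested genes) and 0 in SNI digits (3.03%). Within sham digits, hard keratins were higher at day 14 than at day 7 in all 15 cases, with a median of 1.16 and 6 without overlap, where 8.11% of all tested genes were. Krt82 had 120, 86.7 and 71.1 CPM at day 14, against 34.1, 22.9 and 70.7 CPM at day 7 (log2 fold change 1.12 ± 0.88, SE). The smallest p belonged to Krt39 (1.79 ± 0.80, SE), Krt40 (1.72 ± 0.79) and Krt75 (0.90 ± 0.41), each with an adjusted p of 1. The 8 root sheath keratins had a median of 1.19. Of all 50 keratins, 1 was lower at day 14 without overlap in sham digits (9.39% of all tested genes), and in SNI digits 1, Krt17, was higher (2.88%) and 0 were lower (2.04%). In SNI digits of the time course the hard keratin median for the same days was 0.02 with 9 of 15 positive, and -0.02 with RLE size factors. It was -0.57 with 0 of 15 positive without both libraries that stand apart, and 1.43 without replicate 1 of the SNI digits at day 7, so these libraries gave no direction. Day 21 against day 7 gave medians of 0.61 in SNI digits (0.04 without both libraries that stand apart, 2.19 without SNI replicate 1 of day 7) and 0.32 in sham digits (0.25 without both, 0.11 to 0.82 without 1 library), with 0 called. All 10 suprabasal keratins were negative in sham digits at day 21 against day 7, with a median of -0.63, which was -1.15 without sham replicate 2 of day 21 and -0.25 without replicate 1, and 6 were lower without overlap, where 10.7% of all tested genes were. For day 21 against day 7, 9 of 50 keratins were higher without overlap in sham digits (9.89% of all tested genes), and in SNI digits 1 was lower (2.42%).

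Simple epithelial keratins had low levels. Krt8 had 8.55, 6.18 and 8.64 CPM in SNI digits at day 7, against 9.85, 12.6 and 10.3 CPM in sham digits. At day 14 it had 6.69, 8.41 and 6.90 CPM in SNI digits, against 8.11, 11.0 and 11.3 CPM in sham digits, and at day 21 8.44, 6.71 and 6.47 CPM in SNI digits, against 11.0 and 8.96 CPM in sham digits. The groups were apart at days 7 and 21 and overlapped at day 14. At day 21, 3 of 5 simple epithelial keratins were lower in SNI digits without overlap, where 3.3% of all tested genes were. The average log2 fold change of Krt8 was -0.47 ± 0.12 (SE, adjusted p = 0.337), and DESeq2 gave an adjusted p of 0.0258. Its partner Krt18 averaged -0.47 ± 0.16 (SE), and at day 21 the value for Krt18 was -0.81 ± 0.30 (SE), and -0.21 without sham replicate 1. About 26.9% of the 50-base stretches of Krt8 are shared with a pseudogene copy, so part of its reads may be split.

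Partner keratins kept closer ratios than levels in several pairs. Across the 17 time course libraries Krt71 spanned 4.80 and Krt25 5.33 on the log2 scale, while their ratio spanned 0.79. Krt86 and Krt31 spanned 6.82 and 5.88, and their ratio 1.58. The lowest level of each of these 4 genes was in replicate 2 of the SNI digits at day 7, a library that stands apart. Krt6b and Krt17 did not move together, since Krt6b spanned 6.49, Krt17 1.24 and their ratio 6.67. Krt5 and Krt14 spanned 0.79 and 1.45, and their ratio 0.94. Krt8 and Krt18 spanned 1.02 and 1.66, and their ratio 1.46. Krt81 and Krt86 share 43.5% and 43.3% of their 50-base stretches with other keratins, so their separate values are uncertain. Krt31 shares 28.1% and Krt14 14.4% (11.4% with Krt16), so part of their reads may be split as well. Per kilobase, and again without Krt85, type I keratins made up 56.3% to 63.3% of keratin RNA in every library.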

How the data were processed

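The deposited files are 2 tables of raw read counts per gene from poly(A)-selected, strand-specific RNA-seq, and the labels call the libraries biological replicates. The genome build was GRCm39, per the submitters' processing notes. Which aligner and counter the authors ran is not given in the sources used here. A symbol was found for 55141 (99.4%) of the Ensembl IDs in the amputation set. The 2 tables were normalized and tested apart. edgeR 4.0.16 (limma 3.58.1, R 4.3.3) was run with TMM scaling, filterByExpr (minimum count 10, minimum total 15), a mean per group over all groups of a table, and quasi-likelihood tests, with Benjamini-Hochberg adjustment over 16084 or 17475 genes and a threshold of 0.05. The fit was tested on simulated data. Alternatives were DESeq2 1.42.0, RLE size factors, no filter, a replicate block, the compared groups alone and leaving out libraries. The members and lists were chosen with earlier results of these data known. The rule for naming was up to 4 members per role with the highest mean CPM, every called member, and the 3 smallest p where none was called. Every called member is named, but not every other member that this rule admits. Krt12, Krt77 and Krt79, each among the 3 smallest p of a comparison, are left out of the results above. Other members are named as examples, chosen after their values were seen. Intervals were not computed for counts. SD describes the spread between libraries, and SE the uncertainty of an edgeR log2 fold change, taken from the F statistic of its test.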

Additional observations from a re-analysis of the deposited data

How the results depend on the processing

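Direction was followed for called keratins and, where none was called, for the 3 with the smallest p. None of these turned its direction in its own comparison under the alternatives run, but uncalled medians over roles did. Members named only for their high level were not followed in this way. Without both libraries whose TMM factor fell below 0.8, the hard keratin median turned to -0.57 for SNI day 14 against day 7 (0.02 with all libraries) and to 0.21 for SNI against sham on average (-0.14), the wound keratin median to 1.60 for SNI day 14 against day 7 (-0.03), and the suprabasal median to -0.44 for SNI against sham at day 21 (0.08). The hard keratin median turned to -1.19 for SNI against sham at day 7 (0.19) without SNI day 7 replicate 1, and to -0.07 for amputated against unamputated digits at day 7 (0.05) without amputated day 7 replicate 2. With DESeq2, 6 keratins were called for amputated against unamputated SNI digits at day 7 (3 with edgeR), 8 at day 14 (2), 20 for day 14 against day 7 in amputated digits (5), 14 in unamputated digits (3), 1 for the difference between days (0) and 1 for SNI against sham averaged over days (0). Over all genes DESeq2 called 727, 1866, 452, 149, 17 and 163 in these comparisons. In the fit of the compared groups alone, 0 were called for day 14 against day 7 in unamputated digits. On the plain library total, the mean summed keratin level was 108274 CPM in sham digits at day 14 (101983 with TMM) and 84272 CPM in amputated SNI digits at day 14 (86123 with TMM). The causes were not tested.

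Leaving out 1 library at a time gave 2 to 5 called keratins for amputated against unamputated digits at day 7 (5 without amputated day 14 replicate 2), 0 to 3 at day 14 (0 without replicate 2 or 3 of either day 14 group), 5 to 9 on average (5 without unamputated day 7 replicate 1 or unamputated day 14 replicate 2 or 3) and 0 for the difference between days. The count over all genes moved too. It was 315 in the day 7 fit with 5 keratins, against 236 with all libraries. In the day 14 fits with 0 keratins it was 31 to 136, against 481. In the fits of the average with 5 keratins it was 736 to 1057, against 2060. Called keratins numbered 2 to 9 for day 14 against day 7 in amputated digits (2 without amputated day 7 replicate 2, 9 without amputated day 14 replicate 3) and 0 to 6 in unamputated digits (6 without unamputated day 7 replicate 3). Over all genes, the amputated fits with 2 and 9 keratins called 3 and 106 genes, against 106 with all libraries. The unamputated fit with 6 keratins called 27, against 53. In the time course it gave 0 to 10 for sham day 21 against day 7 and 0 to 2 for the difference between days, the 10 and the 2 without sham day 21 replicate 2, where 8331 and 3384 genes were called and that group is a single library that stands apart, and 0 in the other 7 comparisons.

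The labels do not say what a replicate number marks. In the time course 18 of 40 same-numbered pairs correlated over 0.1 (range -0.787 to 0.773), among them all 3 pairs of SNI and sham digits at day 14 (0.243, 0.147 and 0.105), and in the amputation set 1 of 18 did (range -0.203 to 0.143). These correlations gave no sign of pairing by number in the amputation set, and a sign of it for at most some groups of the time course. With 2 or 3 libraries a group, they cannot exclude a pairing in either set. In the time course the block called 0 keratins in all 9 comparisons, as without it. In the amputation set, with the replicate number as a block, 1 keratin was called at day 14 and 8 on average (7 of them among the 13), and the keratin counts of the other comparisons stayed within 1.5 times. Over all genes the block called 56 at day 14, against 481 without it, and 1114 on average, against 2060.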
